A study of Homo sapiens with 9 samples.

Results

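H1155 cells were treated with cabozantinib at 1 µM for 4 h or with DMSO, the vehicle, and their RNA was sequenced. H1155 is an established human non-small cell lung cancer line with neuroendocrine features. The comparison takes 3 cabozantinib and 3 DMSO libraries, 6 of the 9 in the series, all from this line in complete RPMI medium 24 h after plating. The libraries carry the numbers of their titles, 3, 4 and 5 for cabozantinib and 2, 4 and 5 for DMSO, and the labels call each set biological triplicates. The labels state the dose and the 4 h for the compounds and not separately for DMSO. The other 3 libraries were treated with foretinib, a related inhibitor, at the same dose and time. Of 23369 genes in the table, 14965 were above 0 in at least 1 of the 6 libraries and 9196 had a mean normalised read count of 300 or more over the 6, which was the condition for testing. S1PR2, at a mean of 300.22, lay just inside that limit, and DCLRE1C, at 299.91, just outside it.

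Cabozantinib is an ATP-competitive inhibitor of several receptor tyrosine kinases, among them MET, KDR (the main VEGF receptor of endothelial cells), RET, KIT, FLT3 and the AXL, MERTK and TYRO3 family. Such receptors recruit the adaptor GRB2, which brings the exchange factors SOS1 and SOS2 to RAS, and RAS starts the RAF, MEK and ERK kinase cascade. Active ERK raises the transcription of immediate early genes such as EGR1, in part through the serum response factor SRF and its ternary complex partners, and of feedback inhibitors such as the DUSP phosphatases and the SPRED proteins. Messenger RNAs of this kind are short-lived, so their levels follow kinase activity within hours.

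Values below are normalised read counts, in the order of DMSO replicates 2, 4 and 5 and cabozantinib replicates 3, 4 and 5. Errors are SDs with n = 3 libraries, and fold changes with their 95% intervals are from limma on the log2(value + 1) scale. Gene-assigned reads per library ran from 27257862 to 32986439 in DMSO and from 27264766 to 27522332 in cabozantinib. The largest total, of DMSO replicate 2, came with the fewest genes: 1.05% of the tested genes were at 0 in it, against 0.152% and 0.185% in the other DMSO libraries and 0.0652% to 0.207% with cabozantinib. Most neuroendocrine markers were present, with CHGA (chromogranin A) at 12538 to 14870 and NCAM1 at 1787 to 2573 over the 6 libraries. Of 39 such markers 28 reached the level for testing, and 5 were at 0 throughout, GRP and CALCA among them. Of the markers of other cell types, 5 of 6 for leukocytes, 4 of 5 for endothelium and 3 of 4 for red cells were at 0 throughout. Among these were PTPRC, CD14, CDH5, VWF, HBA1 and HBB. The summed levels of these lists reached at most 71.3, 87.4 and 140.5 in any of the 6 libraries. Of 6 fibroblast markers 3 were at 0 throughout, but COL1A2 was at 438 to 1052. Of 7 epithelial markers 3 were tested, KRT8, KRT18 and CLDN4, and KRT19 was at 0 throughout. In such bulk samples fewer cells of a type and less RNA per cell cannot be told apart.

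No gene passed the test between cabozantinib and DMSO. Of the 9196 genes, 0 (0%) had a limma adjusted p below 0.05, and the smallest adjusted p was 0.938. At an unadjusted limma p below 0.05 there were 216 genes higher with cabozantinib (2.35%) and 183 lower (1.99%), together 4.34%. In 434 genes (4.72%) all 3 cabozantinib libraries lay above all 3 DMSO libraries, and in 479 (5.21%) all lay below, together 9.93%. The median log2 fold change was 0.01, with 4708 genes above 0 and 4488 below. Every fold change given below therefore describes these 6 libraries, with ranks by limma p among the 9196 genes, and none is a called difference. Lack of overlap between 3 libraries and 3 others is common without any effect. With n = 3 some of so many genes also have a small SD by chance. Neither trait by itself sets a gene apart.

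What such a test could show depended on the level of the gene. For 3766 genes with a mean of 300 to 1000 the coefficient of variation was typically 47.4% in DMSO and 40.4% with cabozantinib, and the median half-width of the 95% interval was 2.69-fold. For 374 genes at 10000 or more it was 12.4% and 9.85%, with a half-width of 1.26-fold. Over all tested genes the half-width was 1.81-fold, and the variance between replicates was 138 times the mean in DMSO and 98.6 times with cabozantinib. The whole interval lay within 2-fold in either direction for 3536 genes (38.5%) and within 1.5-fold for 832 (9.05%). The narrow intervals were mainly those of abundant genes.

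**Figure D1:**
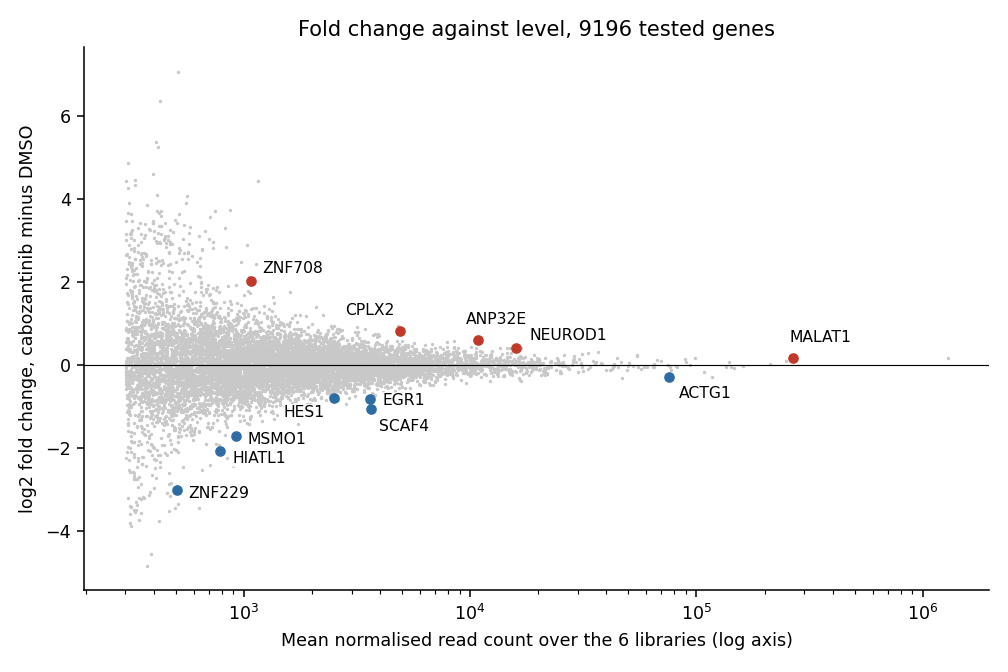
Each grey point is 1 of the 9196 tested genes, with its mean normalised read count over the 6 libraries on a log axis and its log2 fold change, cabozantinib minus DMSO; coloured points are named genes, red above and blue below 0. The scatter narrows from the left, where genes near 300 spread over several log2 units, to the right, where ACTG1 lay at -0.29 and MALAT1 at 0.17.

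**Figure D2:**
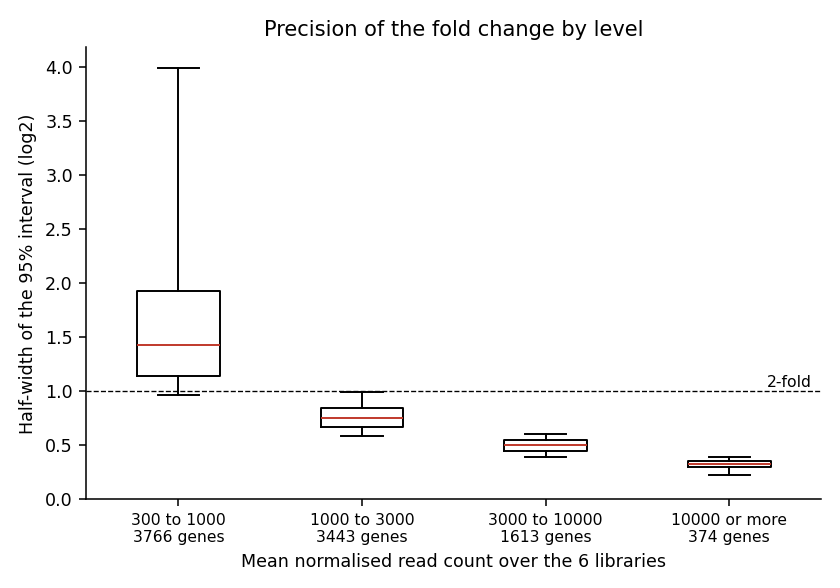
Half-width of the 95% interval of the log2 fold change for the tested genes in 4 ranges of level, with boxes over the quartiles, a red median and whiskers from the 5th to the 95th percentile. The dashed line marks a half-width of 2-fold, above which the median of the range from 300 to 1000 lies and below which the other medians lie.

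The genes of most receptor kinases that cabozantinib is known for had few or no reads in these cells. Of 13 such genes, MET, KDR, KIT, ROS1, TEK and NTRK2 were at 0 in all 6 libraries. AXL and FLT1 reached at most 3.99 and 3.92, FLT3 at most 97.9, and RET was at 34.9, 127 and 182 in DMSO and at 54.6, 261 and 135 with cabozantinib. Only FLT4, MERTK and TYRO3 were tested. FLT4, a receptor for VEGF-C, was at 598, 886 and 218 in DMSO and at 440.03, 369 and 540.1 with cabozantinib. MERTK was at 349, 773 and 230.04 against 479.8, 648 and 408. The replicates of each group spanned more than the distance between the group means for both genes. TYRO3 was at 982, 251 and 905 in DMSO and at 241, 212 and 273 with cabozantinib, with a log2 fold change of -1.33 (95% interval -3.04 to 0.39). DMSO replicate 4 lay among the cabozantinib libraries, so the groups overlapped.

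Other receptor tyrosine kinases were expressed at low to moderate levels, and 13 of 29 were tested. IGF1R, the receptor for insulin-like growth factor 1, was at 1610.3, 1590.2 and 1629 in DMSO and at 1464, 1002 and 1057 with cabozantinib. All cabozantinib libraries lay below DMSO, with a log2 fold change of -0.48 (95% interval -1.22 to 0.26). Among 14 tested cytoplasmic tyrosine kinases, TYK2 had higher values and JAK2 lower values with cabozantinib without overlap, 1 each, beside 4.72% and 5.21% of all tested genes. TYK2 was at 204, 522 and 498 in DMSO and at 1173, 859 and 714 with cabozantinib, and JAK2, a related cytokine receptor kinase, at 1029.8, 883 and 1046 against 668, 581 and 794. The other members overlapped between the groups. FER was at 512, 854 and 286 against 179.8, 93.7 and 552, and PTK2, the focal adhesion kinase, at 5979.8, 3887 and 5509 against 4836, 5625 and 5345.

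Transcripts for the cascade from the receptors to ERK mostly overlapped between the groups. Of 25 tested members, 1 had lower values without overlap and none higher, no larger a share than the 5.21% and 4.72% of all tested genes, and the median log2 fold change was -0.11. The lower member was GRB2, the adaptor, at 1136, 1614 and 1845 in DMSO and at 1057, 593 and 838 with cabozantinib, a log2 fold change of -0.90 (95% interval -1.74 to -0.05, rank 293). The nearest libraries, DMSO replicate 2 and cabozantinib replicate 3, differed by less than the spread within either group. MAP2K2 (MEK2) was at 1221, 1871 and 1184 against 1392, 996 and 1379.9. MAP2K1 (MEK1) had a value of 60.7 in DMSO replicate 2, with 863 and 1818 in the other DMSO libraries and 1150.2, 799 and 1034 with cabozantinib. Its log2 fold change of 1.10 rested on that library: without it the value was -0.35. SHOC2, a scaffold that promotes RAF activation, was at 1100.5, 1386 and 678 against 2052, 1379 and 1779, and cabozantinib replicate 4 lay just below DMSO replicate 4.

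Several transcripts that depend on ERK, with EGR1 and the phosphatase genes DUSP5 and DUSP6 first among them, had lower values in every cabozantinib library than in any DMSO library, and no member passed the test. EGR1, a zinc finger transcription factor and a standard readout of ERK activity, was at 4430.1, 4525 and 4944 in DMSO and at 2330.2, 2609.98 and 2913 with cabozantinib. The means were 4633 ± 273 and 2618 ± 292, 1.77-fold lower with cabozantinib, and the gap between the groups was several times the SD of either. Its log2 fold change was -0.83 (95% interval -1.34 to -0.32), its rank by limma p was 8, and its adjusted p was 0.938. Without any single library the value stayed between -0.91 and -0.75.

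DUSP5, a nuclear phosphatase of ERK, was at 1200.3, 1271 and 1449.8 in DMSO and at 704, 625 and 624 with cabozantinib. The means were 1307 ± 129 and 651 ± 46.1, 2.01-fold lower (log2 fold change -1.002, 95% interval -1.89 to -0.12, rank 201). The SDs of this gene were small, with a residual SD of 0.12 on the log2 scale. The standard error from limma, which also draws on genes of similar level, was 0.43. DUSP6, the cytoplasmic ERK phosphatase, was at 3561, 2858 and 3247 against 1956, 1842 and 2427, a log2 fold change of -0.64 (95% interval -1.22 to -0.06). VGF, a neuroendocrine secretory peptide whose gene responds to growth factors, was at 6367, 7579 and 7033 against 3659, 5923 and 5662. SPRED1, an inhibitor of RAS that acts with NF1, was at 1348, 1658 and 1637 against 752, 919 and 1028. The groups were apart for each of these 3 genes, and the cabozantinib libraries were the lower ones. SPRED2 was at 2067, 1998 and 1436 against 1605, 609.9 and 1162, with cabozantinib replicate 3 inside the DMSO range. Other known outputs of ERK overlapped between the groups. DUSP4 was at 8025, 8435 and 7753 against 7179, 8157 and 7963, with an interval of -0.44 to 0.32 that excluded a 1.5-fold difference. ETV5, an ETS family factor, was at 1546, 1539 and 1692 against 1456, 1707 and 1232. SPRY4, a feedback inhibitor of receptor signalling, was at 1893, 2825 and 1507 against 1569, 2035 and 1476.

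As a list, 16 of 25 ERK-dependent transcripts were tested and 13 of the 16 had a log2 fold change below 0, with a median of -0.36 against 0.01 over all tested genes. The members ran from -1.80 to 1.76, and the 3 above 0 are not among those described here. In 4 of the 16 the cabozantinib libraries were all lower, beside 5.21% of all tested genes, and in none were they all higher. At an unadjusted limma p below 0.05 there were 3 lower members, beside 1.99% of all tested genes, and also 3 without DMSO replicate 2, where the median was -0.32. The summed level of the list was 35695, 42074 and 39732 in DMSO and 30224, 34831 and 32590 with cabozantinib, so the sums did not overlap, by a margin smaller than the SD of either group. The list is small, its members were chosen with earlier results of these data known, and EGR1 belongs to the next list.

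Immediate early genes were mostly too low to test: 17 of 37 reached the mean of 300, and FOS, FOSB, JUN and EGR2 did not. The tested members had a median log2 fold change of -0.36, with 3 lower without overlap and none higher, beside 5.21% and 4.72% of all tested genes. Apart from EGR1 these were ID3, an inhibitor of basic helix-loop-helix factors, and KLF6, a Krüppel-like factor. ID3 was at 1992, 1493 and 1688 in DMSO and at 603, 774 and 1406 with cabozantinib, and its log2 fold change was -0.98 (95% interval -1.80 to -0.15). KLF6 was at 942, 1595 and 1489 against 723, 772 and 567. In both genes the lowest DMSO library lay near the highest cabozantinib library. JUNB, an AP-1 subunit, was at 2915, 931 and 1215 against 645, 1323 and 386, where DMSO replicate 2 alone was high and the groups overlapped. MCL1, an anti-apoptotic BCL2 family gene with a short-lived transcript, was at 2564, 1027 and 1411 against 2717, 2432 and 2395, with DMSO replicate 2 among the cabozantinib libraries. At an unadjusted limma p below 0.05 the list had 4 lower members, beside 1.99% of all tested genes, and 2 without DMSO replicate 2.

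**Figure D3:**
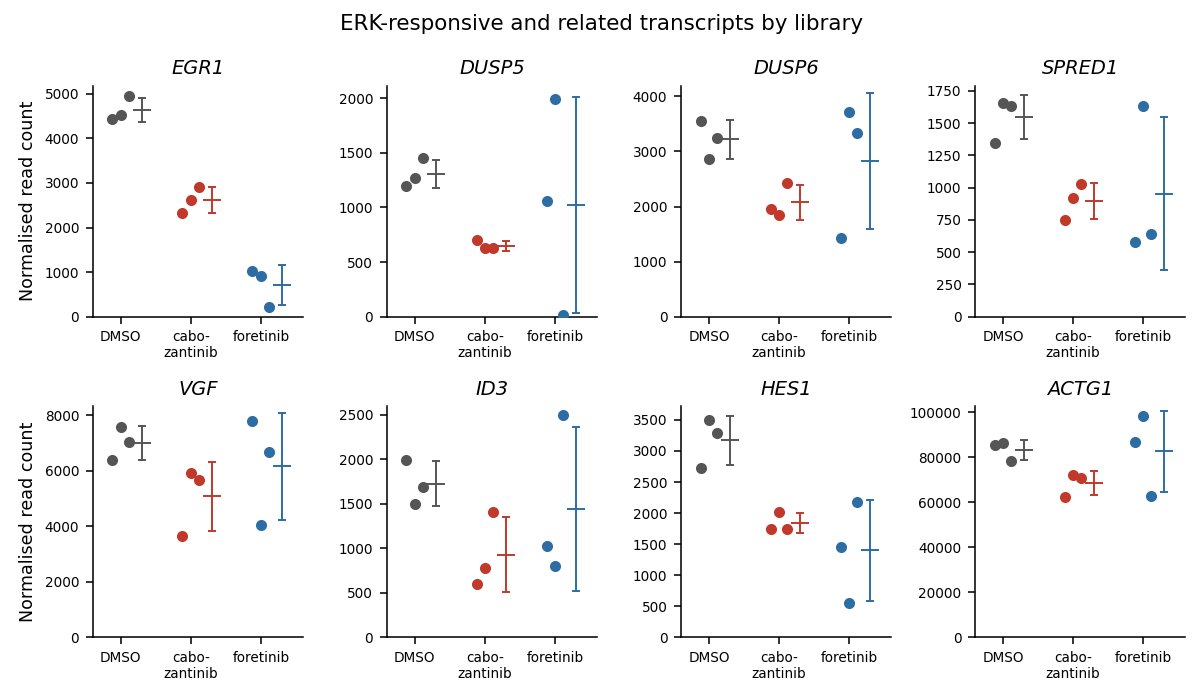
Normalised read count of 8 transcripts in each library, 3 points per group, with the mean and SD beside them; every axis starts at 0 and the foretinib libraries are shown for reference. In each panel all 3 cabozantinib points lie below all 3 DMSO points, with wide gaps for EGR1 and DUSP5. Only genes without overlap are drawn, so that pattern follows from the choice of panels. DUSP4, ETV5, SPRY4, SPRED2 and JUNB, which overlapped, are left out.

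EGR1 and the actin gene ACTG1 are classic targets of SRF, which binds the CArG box, a 10-base element of CC, a run of A or T bases and GG that reads as a CArG box on both strands. The 250 bases before the annotated starts are shown for these 2 genes because both had lower values without overlap and both hold the element. They are RefSeq sequences of GRCh38.p14, written 5′ to 3′ on the strand of the gene, with the CArG boxes in capitals. EGR1 lies at chr5:138465229-138465478 on the plus strand, with boxes that begin 105 and 83 bases before the start. ACTG1 lies at chr17:81512800-81513049 on the minus strand, with 1 box 94 bases before the start.
EGR1: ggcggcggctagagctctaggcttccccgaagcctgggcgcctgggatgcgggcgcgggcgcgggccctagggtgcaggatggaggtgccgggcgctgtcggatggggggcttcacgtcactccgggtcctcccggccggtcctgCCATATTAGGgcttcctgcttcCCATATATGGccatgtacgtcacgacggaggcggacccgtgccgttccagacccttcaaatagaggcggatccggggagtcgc
ACTG1: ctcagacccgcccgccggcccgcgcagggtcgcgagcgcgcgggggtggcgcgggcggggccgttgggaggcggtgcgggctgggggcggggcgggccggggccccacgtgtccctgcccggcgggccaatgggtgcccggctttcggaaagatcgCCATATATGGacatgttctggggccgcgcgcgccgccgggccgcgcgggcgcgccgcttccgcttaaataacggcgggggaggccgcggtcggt

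Of 35116 RefSeq promoter windows of this length, 407 (1.16%) held a CArG box. Of the 9196 tested genes 6839 matched a promoter by symbol, and 101 of those (1.48%) had the box. In 9 of the 101 genes (8.91%) all cabozantinib libraries were lower and in 3 (2.97%) all were higher, beside 5.15% and 4.61% of the matched genes. The median log2 fold change of the 101 genes was 0.05, against 0.01 for all matched genes, and it was -0.02 without DMSO replicate 2. A match of letters says nothing of binding.

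The actin cytoskeleton genes, many of them SRF targets, were abundant and therefore measured with narrow intervals. ACTG1, cytoplasmic gamma-actin, was at 85606, 86298 and 78319.8 in DMSO and at 62309, 72293 and 70837 with cabozantinib. The means were 83408 ± 4420 and 68480 ± 5394, 1.22-fold lower, with a log2 fold change of -0.29 (95% interval -0.49 to -0.08, rank 34). ACTB, beta-actin, was at 113260, 123740 and 105527 against 106671, 100789 and 98928, where cabozantinib replicate 3 lay inside the DMSO range. Actin genes have many near-identical processed copies, and how the counting treated shared reads is not given in the sources used here. WDR1, which promotes actin filament disassembly, was at 4082, 3696 and 3459 against 2906, 2856 and 2394. FLNA, the actin cross-linker filamin A, was at 15497, 15014 and 15482 against 11309, 12855 and 14268. CFL1 (cofilin), ACTN4 and ZYX also had lower values without overlap, and CAPZA1, a filament capping subunit, had higher values. Of 28 tested members 6 were lower and 1 higher without overlap, beside 5.21% and 4.72% of all tested genes, and the list's median was -0.13. At an unadjusted limma p below 0.05 there was 1 lower member and none higher, beside 1.99% and 2.35% of all tested genes. Its summed level was 380299, 395434 and 375314 in DMSO and 348191, 353590 and 343467 with cabozantinib, a ratio of 0.908 with no overlap. ACTB and ACTG1, with uncertain shared reads, weigh heavily in that sum, which therefore says little of the other members. The intervals of 24 of the 28 members lay within 2-fold and of 12 within 1.5-fold.

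In the Notch pathway the target HES1 had the smallest limma p of the tested members. Notch receptors are cleaved when bound by ligands such as JAG1, and the released part activates transcriptional repressors of the HES family, which oppose neuroendocrine factors. HES1 was at 2734, 3497 and 3287 in DMSO and at 1748, 2022 and 1736 with cabozantinib. The means were 3173 ± 394 and 1835 ± 162, 1.73-fold lower, and the gap between the groups was wider than the SD of either (log2 fold change -0.79, 95% interval -1.37 to -0.20, rank 61). Most other parts of the pathway overlapped. NOTCH1 was at 0 in all 6 libraries, and NOTCH2 was at 1024, 1099 and 1135 against 865, 879 and 876, lower without overlap. The ligand JAG1 was at 924, 1915 and 1121 against 635, 499 and 1623, with cabozantinib replicate 5 above the other cabozantinib libraries. RBPJ, the DNA-binding partner, was at 3883, 3387 and 2365 against 2352, 3116 and 2882. NRARP, a feedback target of Notch that was too low to test, was listed at 0 in all DMSO libraries and was at 43.7, 273 and 140.1 with cabozantinib. Of 20 tested members 2 were lower and none higher without overlap, beside 5.21% and 4.72% of all tested genes, and the median was -0.10.

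Neuroendocrine genes showed values in both directions. NEUROD1, a lineage-defining basic helix-loop-helix factor, was at 13907, 13249 and 13806 in DMSO and at 18787, 18076 and 17709 with cabozantinib. The means were 13654 ± 354 and 18190.4 ± 548, 1.33-fold higher (log2 fold change 0.41, 95% interval 0.11 to 0.72, rank 51). The distance was many times the SD of either group, but the residual SD of this gene was small, 0.04 on the log2 scale. Its limma standard error, which also draws on genes of similar level, was 0.15. CPLX2, a regulator of synaptic vesicle fusion that is not on the marker list, was at 3185, 2900.1 and 4461 against 5089, 5882 and 7795, with a log2 fold change of 0.83 (95% interval 0.33 to 1.34, rank 6). SYP, the vesicle membrane protein synaptophysin, went the other way, at 4979, 4458 and 4294 against 2209, 3669 and 2769 (log2 fold change -0.70, 95% interval -1.22 to -0.17). INSM1, a zinc finger factor of neuroendocrine cells, was at 9367, 13255 and 16477 against 16794, 17455 and 16366. Its log2 fold change was 0.41, and 0.19 without DMSO replicate 2, and DMSO replicate 5 was level with the cabozantinib libraries. CHGB, chromogranin B, was at 4823, 4416 and 4477 against 5519.7, 5295 and 5203, and STMN1, a microtubule destabiliser, at 7012, 6589 and 7181 against 7421, 8956 and 7518, both small differences without overlap. CHGA, NCAM1 and PCSK1 overlapped. Of 28 tested markers 3 were higher and 1 lower without overlap, beside 4.72% and 5.21% of all tested genes, with a median of 0.04.

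The first 12 genes in each direction, ranked by limma p among genes without overlap, ranged from zinc finger factors to genes of signalling and metabolism. On the higher side the ratios of means ran from 1.53 to 3.95 and the ranks from 1 to 19. ZNF708, a zinc finger gene that was first of all genes, was at 579, 235 and 489 in DMSO and at 2242, 1141 and 1765 with cabozantinib, a log2 fold change of 2.02 (95% interval 1.00 to 3.05). ANP32E, a chaperone that removes the histone variant H2A.Z, was at 8895, 8527 and 8173 against 12496, 11763 and 15019, a log2 fold change of 0.61 (95% interval 0.26 to 0.97). It was the most abundant of the 12, and its DMSO libraries lay within a narrow range. ADI1, an enzyme of methionine salvage, was at 256, 644 and 533 against 2354, 1151 and 1316. MAPKAP1, the SIN1 subunit of mTOR complex 2, was at 1731, 4678 and 4028 against 6237, 6848 and 5424, and its value without DMSO replicate 2 was 0.50 in place of 0.94. PPP1R12B, a myosin phosphatase subunit, was at 323, 280.3 and 319 against 941, 1865 and 841. Also among the 12 were CPLX2, MUM1, ZNF480, SAPCD2, DDHD2 and GBAS.

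On the lower side the ratios ran from 1.69 to 4.15 and the ranks from 2 to 27. UBTD2, a ubiquitin domain protein that was second of all genes, was at 3446, 1813 and 2324 in DMSO and at 1077, 652 and 1076 with cabozantinib, a log2 fold change of -1.42 (95% interval -2.18 to -0.66). SCAF4, which binds the tail of RNA polymerase II, was at 7075, 4103 and 3802 against 2048, 2168 and 2727. HIATL1, a transporter-like gene, was at 1916, 1083 and 813 against 285, 465 and 169. RTN3, an endoplasmic reticulum shaping protein, was at 8854, 5769 and 7061 against 3717, 3741 and 5351. MAP2K7, an activating kinase of JNK, was at 1489.7, 1098 and 1129.7 against 421, 311 and 630.1, a log2 fold change of -1.49 (95% interval -2.53 to -0.45). EIF5A2, a variant translation factor, was at 2912, 1707 and 2849.6 against 1295, 850.1 and 1427. The others were EGR1, UBE2E1, FAM108A1, ACER3, MSMO1 and EXOSC6. DMSO replicate 2 had the highest value of the 6 libraries in 9 of these 12 genes, and the lowest of the 6 in 5 of the 12 on the higher side. The part of that library in the ranking was not tested beyond leaving it out, under which each of the genes named here kept its direction.

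**Figure D4:**
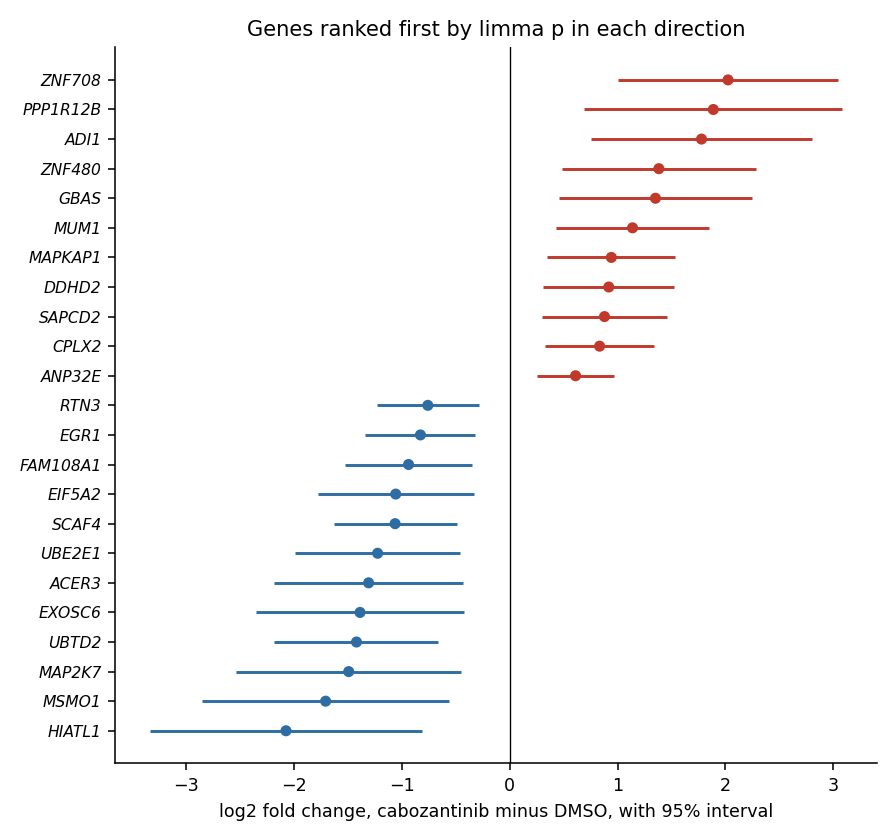
Log2 fold change, cabozantinib minus DMSO, with its 95% interval for the genes named above from the first 12 by limma p in each direction among genes without overlap, red higher and blue lower with cabozantinib. No interval contains 0, which the ranking ensured, and every gene drawn had an adjusted p of 0.938.

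MYCN, the MYC family gene these cells express, was at 2797, 2433 and 1965 in DMSO and at 2566, 2729.6 and 3534 with cabozantinib. The groups overlapped, and the log2 fold change was 0.30 (95% interval -0.29 to 0.88). MYC was at 0 in all 6 libraries. MXI1, an antagonist that competes for the partner MAX, was at 310.3, 1086 and 148 against 1138, 852 and 942, with DMSO replicate 4 among the cabozantinib libraries. The ribosome biogenesis genes that MYC proteins control had a median of -0.02 over 33 tested members, with 2 lower without overlap, RRP9 and MYBBP1A, a share near the 5.21% of all tested genes. RRP9, a component of the small nucleolar particle that processes ribosomal RNA, was at 1527, 1442 and 679 against 434, 571 and 428. Ribosomal protein genes were the most precisely measured list: 72 of 74 had an interval within 2-fold and 56 within 1.5-fold, and their median was 0.02. RPS27 was the member with the smallest p, at 14757, 14686 and 12324 against 9391, 11439.5 and 11188. Many of these genes have near-identical pseudogenes, so single values are uncertain.

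Cell cycle transcripts were balanced between the groups. Of 50 tested mitosis genes 4 were higher and 3 lower without overlap, shares near the 4.72% and 5.21% of all tested genes, with a median of 0.11. Of 44 DNA replication genes 1 was higher and none lower, with a median of 0.01. The intervals of 40 of the mitosis genes lay within 2-fold. INCENP, which anchors the chromosomal passenger complex, was at 5976, 7570.1 and 7009.99 in DMSO and at 8088, 8427 and 8713 with cabozantinib. NCAPH, a condensin subunit, was at 8117, 6273 and 8389 against 5850.4, 5213 and 5711, and NCAPD2, another condensin subunit, was at 4957, 4900.1 and 4211 against 3859, 3184 and 3312. Both condensin genes were lower in every cabozantinib library. PLK1, a mitotic kinase, was at 3397, 3381 and 2601 against 2800.1, 1382 and 1619 and overlapped. AURKB, the kinase that INCENP activates, was at 1446, 888 and 671 against 1010.2, 409 and 1666, with the lowest and the highest value both in the cabozantinib group. MCM10, a replication initiation factor, was at 873, 848 and 1166 against 1831, 1426 and 1413.

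Among metabolic genes, several members of the respiratory chain lay apart between the groups. Of 44 tested nuclear-encoded respiratory chain genes 7 had higher values without overlap, beside 4.72% of all tested genes, and 1 had lower values, while the list's median was 0.05. SDHB, the iron-sulphur subunit of complex II, was at 2843, 4589.7 and 4649 in DMSO and at 5394, 5099 and 7397 with cabozantinib. Higher values without overlap were also found for the complex II genes SDHA, at 1361, 1347 and 1063 against 1427, 1559 and 1661, and SDHC, at 942, 725 and 721 against 1057, 1173 and 1080.2. NDUFB5, a complex I subunit, was at 2084, 1783 and 1573 against 495, 1271 and 832 and was the lower member. DMSO replicate 2 was the lowest library for the summed list, at 167843 against 193536 to 211945 in the other 5, and without it the median was 0.01. MSMO1, a sterol demethylase, was at 2264, 763 and 1224 against 314, 698 and 276, where DMSO replicate 4 and cabozantinib replicate 4 lay near each other. Of 23 tested genes of cholesterol synthesis and uptake 2 were lower and 1 higher without overlap, shares near the 5.21% and 4.72% of all tested genes, with a list median of -0.15. At an unadjusted limma p below 0.05 the list had 2 lower members, and none without DMSO replicate 2.

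VEGFA, the ligand of KDR and FLT1, was at 552, 1301 and 1208 in DMSO and at 1715, 2033 and 2029 with cabozantinib, a log2 fold change of 1.01 (95% interval 0.21 to 1.81, rank 105). KDM3A, a histone demethylase induced by hypoxia, was at 304, 206 and 533 against 852, 1002 and 950.3. All cabozantinib libraries were higher for both. Over the 28 tested hypoxia and glycolysis genes the median was 0.02. Without overlap these 2 were higher and 1, PDK1, was lower, shares near the 4.72% and 5.21% of all tested genes. In the lysosome and autophagy list 6 of 36 tested members were lower without overlap and 1, the peptidase gene TPP1, higher, beside 5.21% and 4.72% of all tested genes, with a median of -0.04. SQSTM1, the autophagy receptor p62, was at 4354, 4637 and 4456 against 2992, 3325 and 1896, a log2 fold change of -0.75 (95% interval -1.29 to -0.21, rank 41). LAMP1, a lysosomal membrane protein, was at 3148, 1489.7 and 1611 against 1386, 1070.3 and 866. SQSTM1 was even across the DMSO libraries, while the LAMP1 mean leaned on DMSO replicate 2.

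**Figure D5:**
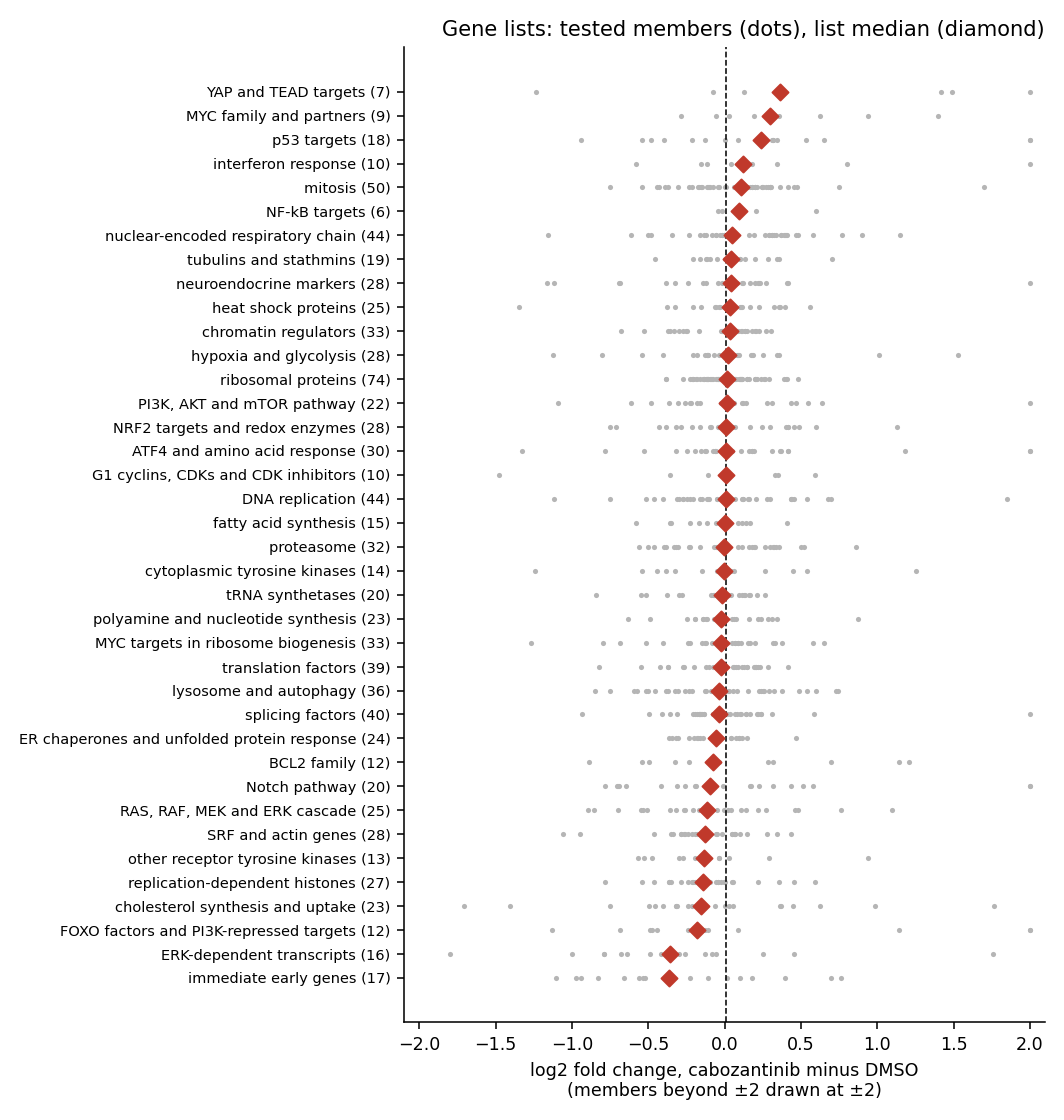
Log2 fold change, cabozantinib minus DMSO, of the tested members (grey dots) and their median (red diamond) for each list with at least 5 tested members, the number of which stands in brackets; the dashed line is the median of all tested genes, 0.01. Immediate early genes and ERK-dependent transcripts, both at -0.36, have the lowest medians. Without DMSO replicate 2 they were at -0.50 and -0.32, and the list of FOXO factors and PI3K-repressed targets went from -0.18 to -0.44, below the ERK-dependent list. YAP and TEAD targets, with 7 tested members, have the highest, 0.36, followed by the MYC family and its partners at 0.30. Without DMSO replicate 2 these 2 medians were 0.24 and 0.06. The YAP and TEAD members ran from -1.24 to 3.02, and all overlapped between the groups.

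Cabozantinib and foretinib share a quinoline, a central aryl ether and a cyclopropane dicarboxamide with a fluorophenyl group. Foretinib differs by a fluorine on the central ring and a morpholinopropoxy chain where cabozantinib has a methoxy group. This single pair was compared at the same dose and time, in 1 model of all 9 libraries, with p adjusted over the 9196 genes. None (0%) passed, and 860 genes (9.35%) had an unadjusted limma p below 0.05. The foretinib libraries had 4.9% to 7.25% of the tested genes at 0, more than any of the other 6, and correlated with each other at 0.456 to 0.485, against 0.783 to 0.823 among the cabozantinib libraries. The part of this difference in quality in the values below was not tested.

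EGR1 was at 713 ± 442 with foretinib, below every cabozantinib library. The log2 difference, cabozantinib minus foretinib, was 2.17 (95% interval 1.03 to 3.31, limma adjusted p 0.354). CDKN2B, the CDK inhibitor p15, was at 730.1, 1125 and 1508 with cabozantinib and at 0, 97.0 and 0 with foretinib, with the same adjusted p. With 2 of the 3 foretinib libraries at 0, the size of that difference depends on the pseudocount of 1 and is not given. SHOC2 was lower with cabozantinib than with foretinib, at 1737 ± 338 against 3899.7 ± 679 (difference -1.17, 95% interval -1.997 to -0.35). PIK3R2, a regulatory subunit of PI3 kinase, was likewise lower, at 833 ± 344 against 2609 ± 178 (difference -1.75, 95% interval -2.86 to -0.64), and MSMO1 at 429 ± 233 against 1713 ± 728. SAPCD2 was higher with cabozantinib, at 4408 ± 566 against 2152 ± 359, as was SDHB, at 5963 ± 1250.1 against 3483 ± 445. The groups did not overlap for any of these genes, and none passed the adjusted threshold. The share of all tested genes without overlap in this comparison was not counted, so the lack of overlap does not set these genes apart. These genes were chosen for display after their values were seen.

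For several genes described above, the interval left room for either order of the compounds. HES1 differed by 0.60 (95% interval -0.40 to 1.60), DUSP6 by -0.34 (95% interval -1.14 to 0.46) and DUSP5 by 0.96 (95% interval -2.09 to 4.01), since 1 foretinib library was near 0 for DUSP5. NEUROD1 was at 18190.4 ± 548 with cabozantinib and 17384 ± 1269.8 with foretinib. Its interval of -0.23 to 0.36 lay within 1.5-fold, so a difference of that size between the compounds was outside it. ANP32E was at 13093 ± 1708 against 14453 ± 741, with an interval of -0.48 to 0.18 that likewise lay within 1.5-fold.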

How the data were processed

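RNA of 9 H1155 libraries was sequenced after column purification with DNase digestion and NuGEN Encore library preparation, per the labels' protocols. The authors deposited 1 signal value per gene and library, the read count divided by a size factor, in 1 table. The submitters' processing notes list Cufflinks 2.2.1, DESeq2, HTSeq and TopHat2 2.0.13 and the build hs37d5, without roles. The annotation and strand setting were not given in the sources used here. Overlapping and antisense genes can therefore not be told apart. Dividing each column by its smallest step gave whole reads for 100% of the values, to a tolerance of 1e-06 of a read, so totals could be recovered. For 3 of the 6 columns the step lay near 1, and an automatic check could not tell multiples from rounding there, although 100% of their values were whole multiples too. Count tests served only as alternatives.

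Genes with a mean of 300 or more over the 6 libraries were tested on log2(value + 1) with limma 3.58.1 in R 4.3.3 (mean-variance trend, no covariates) and Benjamini-Hochberg adjustment at 0.05. Cabozantinib was compared with foretinib in a model of all 9 libraries. The fits were checked on simulated data with 4-fold changes in 200 genes with a mean above 3000. Smaller changes, and changes in genes at lower levels, were not simulated. No molecular identifiers were used, so reads of 1 molecule cannot be told from reads of several. Nothing beyond the labels' words says that the triplicates came from separate cultures, so p-values measure the spread between these libraries. No 2 libraries agreed within counting noise. Library numbers 4 and 5 occur in both groups, but no label says that a number marks a shared culture or day, so they were not treated as pairs. Deviations of same-numbered libraries correlated at 0.00986 and 0.00212.

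Named genes were up to 12 per direction with the largest change past the threshold (none), the 12 per direction with the smallest limma p among genes without overlap, up to 3 per list with the smallest p, and MYCN, EGR1, HES1, JAG1, MAP2K1, MAP2K2, FER, PTK2, AURKB and the target kinases. The text describes a subset, and a few genes are not reported here. Any other gene given with its values was chosen after its values were seen. The members and lists were chosen with earlier results of these data known. Lists are described by counts and medians, without a test. Alternatives were other pseudocounts (10 and 50), filters, scalings (TMM and quantile), DESeq2 1.42.0 and edgeR 4.0.16 run on those reads, a replicate block, no trend, all 9 libraries and leaving out each library.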

Additional observations from a re-analysis of the deposited data

How the results depend on the processing

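The absence of called genes held under pseudocounts of 10 and 50, each filter, both other scalings, edgeR, no mean-variance trend, all 9 libraries and every left-out library. With a replicate block over the shared numbers, 1 gene was called higher, the nuclear RNA MALAT1 (log2 fold change 0.30, limma adjusted p 0.0216). Number 2 occurs only in DMSO and number 3 only in cabozantinib, so the block fit rests on numbers 4 and 5 alone. DESeq2 called 1 gene lower, ZNF229, at 1153, 378 and 1204 in DMSO and 118, 108 and 76.7 with cabozantinib (log2 fold change -3.17, adjusted p 0.0208), and gave no adjusted p for 7 genes. No label says that the numbers pair the libraries, and the block changed no other call. Genes at an unadjusted p below 0.05 numbered 135 higher and 112 lower among the 5430 with a mean of 1000 or more, and 38 and 25 with all 9 libraries in 1 model. They ran from 136 higher without cabozantinib replicate 5 to 350 without DMSO replicate 5, and from 156 to 208 lower over the left-out libraries. The median log2 fold change was 0.04736 without a filter, 0.03972 with a value of 10 in 3 libraries, 0.02572 with TMM, -0.001182 with the replicate block, 0.003997 with edgeR, 1.201e-06 with DESeq2 and between -0.0077 and 0.02573 over the left-out libraries.

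Of 95 single genes, 7 turned direction under some alternative, and none of these was apart between the groups. With the replicate block, which rests on numbers 4 and 5, MAP2K1 was at -0.46, AURKB at 0.097, FLT4 at 0.0203 and RBPJ at 0.0823. AURKB was at 0.0486 with edgeR and 0.042 with DESeq2. Over the left-out libraries MAP2K1 ran from -0.35 without DMSO replicate 2 to 2.09, MAP2K2 from -0.28 to 0.046 without DMSO replicate 4, and PTK2 from -0.13 without DMSO replicate 4 to 0.18. AURKB ran from -0.57 to 0.45 without cabozantinib replicate 4, FLT4 from -0.71 to 0.30 without DMSO replicate 4, and MERTK from -0.0474 without DMSO replicate 5 to 0.83. Beyond the libraries that each fit used, the cause was not tested. Of 114 list medians recomputed with quantile scaling, a pseudocount of 50 or without DMSO replicate 2, the last chosen after seeing the data, 4 moved beyond the allowed range, as did 46 of 228 list counts, most of them counts of 0 to 2. The effect of depth was not tested. The variance between replicates was far above the mean, and the median half-width of the 95% interval was over 2-fold for genes with a mean below 1000.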

Other observations

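A few further transcripts outside the pathways above stood apart between the groups without passing the limma test. B2M, the invariant chain of MHC class I, was at 1121, 2118 and 1476 in DMSO replicates 2, 4 and 5 and at 2632, 2354 and 2995 in cabozantinib replicates 3, 4 and 5, a log2 fold change of 0.80 (95% interval 0.14 to 1.46). It was the 1 of 10 tested interferon response genes with higher values in every cabozantinib library, beside 4.72% of all tested genes. HSF1, the master factor of the heat shock response, was at 1622, 1597 and 1626 in DMSO and at 1344, 811 and 232 with cabozantinib. Its DMSO libraries were nearly identical, whereas the cabozantinib libraries spanned a wide range. HIST1H3B, a replication-dependent histone H3 gene, was at 3713, 4059 and 3154 against 2842, 2280.1 and 1433. Histone genes have near-identical copies, and their messages lack poly(A) tails, so their values depend on the library preparation and the counting.

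Among 39 tested translation factors the values went in both directions. EIF5, which triggers GTP hydrolysis at the start codon, was at 21399, 18504 and 16694 in DMSO and at 15058, 16568 and 12185 with cabozantinib. EIF1AX, a start codon scanning factor, was at 8431, 14836 and 14909.8 against 16061, 16848 and 16305, with DMSO replicate 2 far below the rest. CCNG2, a FOXO target that encodes a growth-inhibitory cyclin, was at 541, 10 and 203 against 786, 558 and 1001. IMPDH2, the rate-limiting enzyme of guanine nucleotide synthesis, was at 1150.4, 3004 and 1508 against 3681, 3983 and 2179.8, and the groups overlapped.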
